A study of Mus musculus with 12 samples.

Results

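Heat shock and endoplasmic reticulum (ER) chaperones were examined in the left ventricle of mice with an overloaded or injured heart. A list of 38 gene symbols was looked up in the annotation of the array platform, and each gene was represented by the brightest of its probe sets. Of the 38 genes, 37 were measured and stood among the 11624 genes tested, and Hsp90ab1 was not analysed here. The list held 12 cytosolic chaperones and co-chaperones (11 of them measured), 5 small heat shock proteins, 3 mitochondrial chaperones, 15 ER folding factors and 3 genes of ER regulation and degradation. All mice were of the Balb/c strain and aged 6 to 8 weeks. The groups were transverse aortic constriction (TAC, a narrowed aorta that raises the load on the left ventricle) at 1 day, 1 week and 1 month, myocardial infarction (MI, by ligation of the left coronary artery) at 1 week and 1 month, and an infusion of angiotensin II (Ang II, a pressor hormone) at 2 mg/kg/day for 1 week. Each had a control of its own, a sham operation at the same time for TAC and MI and saline from a minipump for Ang II. Every group was 1 array, so there were 6 procedure arrays and 6 control arrays, and whether an array held 1 animal or a pool is not stated. The p-values below thus reflect how far these arrays differ among themselves, which can include technical spread. In the test over all pairs of procedure and control, this spread also holds differences between the models and times.

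Molecular chaperones bind unfolded protein chains and help them to fold, to cross membranes or to be degraded. In the cytosol the Hsp70 and Hsp90 families do this with J-domain partners and nucleotide exchange factors, under the control of heat shock factor 1, which binds arrays of the short unit nGAAn in promoters. The small heat shock proteins hold unfolding proteins, and in heart muscle several of them bind to the sarcomere and its filaments. In the mitochondrial matrix an Hsp70 pulls in proteins, and the Hsp60 and Hsp10 chaperonin folds them. The ER folds secreted and membrane proteins with its own Hsp70, a set of disulphide isomerases and lectins, and its unfolded protein response raises their genes through the factors ATF6 and XBP1.

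Promoter windows of 300 bases, from 250 before to 50 after the annotated start, were available in the RefSeq table of the mouse build GRCm38.p6 for 30 of the 38 genes. Hspd1 and Hspe1, which encode the 2 partners of the mitochondrial chaperonin, are divergent neighbours on chromosome 1 whose windows share 285 of 300 bases (4 of 300 from a second annotated start of Hspd1), and the Hspe1 window (plus strand, chr1:55087898-55088197) is shown because both genes fell in these hearts. In it the capitals mark a pair of overlapping heat shock elements of 3 units (GAA, TTC and GAA with 2 bases between each and the next, on either strand), the first of which begins 89 bases before the start of Hspe1. The Hspa1b window (minus strand, chr17:34959189-34959488) is shown because this gene for inducible Hsp70 had the widest range of all members, and its capitals mark the pair of heat shock units GAANNTTC, 104 bases before the start.
Hspe1: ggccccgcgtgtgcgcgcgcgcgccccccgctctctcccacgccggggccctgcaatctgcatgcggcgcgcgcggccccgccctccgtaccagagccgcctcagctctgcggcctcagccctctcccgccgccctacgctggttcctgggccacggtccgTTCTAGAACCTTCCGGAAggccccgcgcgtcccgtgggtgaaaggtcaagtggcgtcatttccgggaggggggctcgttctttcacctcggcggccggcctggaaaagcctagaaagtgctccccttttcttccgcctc
Hspa1b: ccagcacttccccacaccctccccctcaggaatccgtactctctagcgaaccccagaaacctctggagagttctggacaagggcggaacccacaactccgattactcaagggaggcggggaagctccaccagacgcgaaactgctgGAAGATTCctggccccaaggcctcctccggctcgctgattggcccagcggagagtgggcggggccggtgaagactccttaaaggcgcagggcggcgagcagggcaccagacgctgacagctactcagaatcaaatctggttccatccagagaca

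The heat shock element of 3 units was in the windows of Hspd1, Hspe1 and Hsph1 and in 0.662% of 27025 genes with a window. A pair of units, GAANNTTC or TTCNNGAA, each of which reads the same on both strands and forms part of the longer element, was in 10 of the 30 members (Bag3, Dnaja1, Dnajb4, Hspa1a, Hspa1b, Hspb1, Hspb8, Hspd1, Hspe1 and Hsph1) and in 17.0% of all genes. The windows of Hspa1a and Hspa1b were the same at 296 of 300 bases (98.7%). Their transcripts are near-identical too, and signals of the probe sets of one may include the other.

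The ER stress element (CCAAT and CCACG with 9 bases between them, on either strand) was in 7 of the 30 members and in 0.137% of all genes (37 of 27025). A shorter form (ATTGG and CCACG with 1 base between them) was in Dnajb11 and Herpud1 and in 0.0444% of all genes, and TGACGTGG was in 0 of 30 members and in 0.714% of genes. Of the ER members with a window, 9 held an element of either form and 7 did not. The matches are given below on the strand where they read as the motif, with the fixed bases in capitals. Each is said to lie on the same strand as its gene or on the opposite one. The window of Hspa5 (plus strand, chr2:34771840-34772139) follows them, with its match in capitals.
Hspa5, chr2:34772025-34772043, same strand: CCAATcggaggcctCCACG
Hsp90b1, chr10:86705638-86705656, same strand: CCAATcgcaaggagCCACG
Hsp90b1, chr10:86705533-86705551, opposite strand: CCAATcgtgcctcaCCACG
Calr, chr8:84847075-84847093, opposite strand: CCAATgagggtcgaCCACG
Canx, chr11:50325800-50325818, same strand: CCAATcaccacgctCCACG
Pdia6, chr12:17266491-17266509, same strand: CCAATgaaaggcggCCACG
Dnajc3, chr14:118937827-118937845, same strand: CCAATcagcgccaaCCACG
Creld2, chr15:88819520-88819538, opposite strand: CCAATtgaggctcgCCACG
Herpud1, chr8:94386377-94386387, same strand: ATTGGgCCACG
Dnajb11, chr16:22857852-22857862, same strand: ATTGGcCCACG
Hspa5 window: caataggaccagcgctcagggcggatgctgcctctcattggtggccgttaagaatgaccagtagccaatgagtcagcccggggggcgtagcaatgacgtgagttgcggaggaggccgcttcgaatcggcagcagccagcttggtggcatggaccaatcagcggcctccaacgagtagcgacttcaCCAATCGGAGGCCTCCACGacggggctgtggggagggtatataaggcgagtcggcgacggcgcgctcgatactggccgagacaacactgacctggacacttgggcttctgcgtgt

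Signals are probe-set intensities scaled so that all 12 arrays had the same trimmed mean, and they are compared between arrays and not between genes. All 8 markers of heart muscle cells were measured, and their summed signal lay between 74613 and 92265 on the procedure arrays and between 88177 and 95561 on the controls. The summed signal of 8 fibroblast markers lay between 14364 and 38738 on the procedure arrays and between 10739 and 14594 on the controls, and that of 10 macrophage markers between 4327 and 13620 on the procedure arrays and between 3828 and 6589 on the controls. The summed signal of 4 atrial markers lay between 6105 and 18907 on the procedure arrays and between 2497 and 5133 on the controls. Of the 8 cell types looked up, neutrophils had 4 of 5 markers on the array and adipocytes 3 of 5. The filter on dim genes was passed by 3 neutrophil, 2 B and plasma cell and 1 adipocyte markers. None of the markers on the array was at the floor of measurement on all arrays. In bulk tissue, fewer cells of a type and less RNA per cell cannot be told apart. The 3' to 5' signal ratio of actin lay between 1.18 and 1.33 on all arrays. The 5' to 3' ratio of the array's dap control probes was 0.195 to 0.211 on the 4 arrays of the MI series, 0.279 to 0.408 on the 6 of the TAC series and 0.488 and 0.493 on the 2 of Ang II, and the values of the TAC 1 day array were deposited with up to 6 decimals against 1 on the others.

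The first question was which members moved in one direction over the 6 pairs of procedure and control. In limma's test of the mean of the 6 pairs, with Benjamini-Hochberg adjustment over all genes, 5 of 37 members passed (13.5%), beside 10.9% of all genes tested. Edem1 and Pdia3, which act on glycoproteins in the ER, rose, and the 3 mitochondrial chaperones Hspd1, Hspe1 and Hspa9 fell. Of 11 cytosolic and 5 small heat shock proteins, 0 passed in either direction. One direction in all 6 pairs was shown by 7 members, higher for Edem1 and lower for Hspa9, Hspd1, Hspe1, Dnajb9, Canx and Herpud1, which is 18.9% of the members beside 19.4% of all genes. Both shares are close to those of all genes. In the fit with separate effects of each model 0 of 37 members passed for MI (0.981% of all genes) and 0 for Ang II (0.0% of all genes), while 13 members for MI (17.3% of all genes) and 1 for Ang II (2.44%) had an unadjusted p under 0.05.

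In single pairs, where 1 array faces 1 array with no replicate, a member is called here on 3 conditions: it differed at least 1.5-fold from its control, the brighter of the 2 signals exceeded 25.9 (the median over all arrays), and all 6 controls lay on one side of the procedure array. After TAC at 1 day 5 members were called higher and 2 lower (18.9% of 37, beside 27.6% of all genes). After TAC at 1 week 0 of 37 were called (9.21% of all genes), and at 1 month 3 were called higher and 0 lower (8.11%, beside 8.99%). After MI at 1 week 8 were called higher, all of them ER genes, and 1 lower (24.3%, beside 18.0% of all genes, with 11.9% of all genes higher). After MI at 1 month 2 were called higher and 2 lower (10.8%, beside 9.37%), and with Ang II 1 was called lower and 0 higher (2.70%, beside 4.74%). With a limit of 2-fold the members called were 4, 0 and 2 after TAC at 1 day, 1 week and 1 month (beside 12.1%, 3.0% and 3.17% of all genes), 2 and 1 after MI at 1 week and 1 month (7.31% and 3.51%) and 1 with Ang II (1.72%). At 1.5-fold MI at 1 week was the pair with the highest share of called members relative to all genes.

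**Figure D1:**
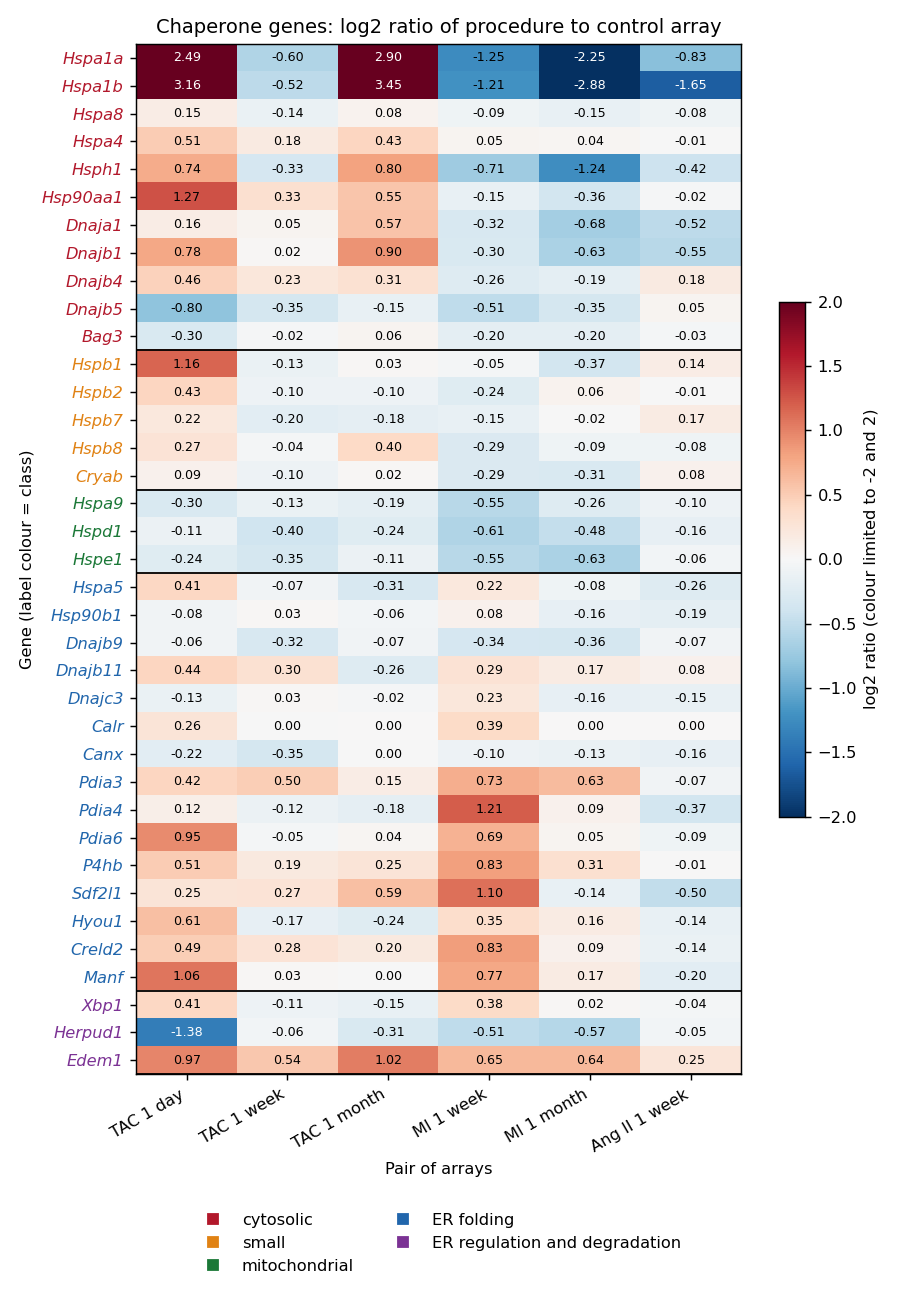
Each cell gives the log2 ratio of the procedure array to its control array for 1 member (rows, grouped by class) in 1 of the 6 pairs (columns). The mitochondrial rows are below 0 in every pair, most ER rows are above 0 for MI at 1 week, and the cytosolic rows Hspa1a and Hspa1b run from 3.45 to -2.88.

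The mitochondrial chaperones were lower in every pair, and all 3 passed the test. Hspd1 (Hsp60) gave a signal of 2643, 2093 and 2357 after TAC at 1 day, 1 week and 1 month, against 2859.9, 2753 and 2781 in the shams. After MI it gave 2352 and 2322 at 1 week and 1 month, against 3586 and 3235, and with Ang II 2657, against 2976. All 6 procedure arrays lay below all 6 controls, which held for no other member and for 2.73% of all genes in either direction. Over the 6 pairs Hspd1 fell by 0.33 ± 0.076 on the log2 scale (SE of the fit, 6 pairs, adjusted p = 0.0264).

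Hspe1 (Hsp10), the lid of the same chaperonin, gave 2184, 1913 and 2163 after TAC at 1 day, 1 week and 1 month, 1765 and 1749.8 after MI at 1 week and 1 month and 2484 with Ang II, against 2584, 2433 and 2337, 2583 and 2713, and 2594 in the matching controls. The groups overlapped only through the Ang II array, which was above the shams of TAC at 1 week and 1 month. Hspe1 fell by 0.32 ± 0.085 (adjusted p = 0.040), and it was furthest below its sham after MI at 1 month, 1.55-fold. Hspa9 (mortalin, the matrix Hsp70 that drives protein import) gave 2079, 1696 and 1881 after TAC at 1 day, 1 week and 1 month, 1762 and 2123 after MI at 1 week and 1 month and 2160.1 with Ang II, against 2556, 1859.6 and 2144, 2577 and 2546, and 2310.2 in the matching controls. Here the groups overlapped, since the sham of TAC at 1 week was lower than 4 of the procedure arrays. Hspa9 fell by 0.25 ± 0.071 (adjusted p = 0.0473).

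The class median was -0.24, -0.35 and -0.19 after TAC at 1 day, 1 week and 1 month, -0.55 and -0.48 after MI at 1 week and 1 month and -0.097 with Ang II, beside medians of all genes between -0.074 and 0.009. Controls of the same time differed by up to 0.38 in this median, so each pair outside MI lay within the difference between shams. With the shams of the TAC and MI series exchanged, a choice made after seeing the data, the medians stayed below 0 in all 4 pairs, at -0.60 and -0.44 after TAC at 1 week and 1 month and -0.23 and -0.26 after MI. In that fit Hspe1 passed (adjusted p = 0.0304), and Hspd1 (0.0517) and Hspa9 (0.106) did not. The scaling bears on these calls, since with the signals as deposited Hspd1, Hspe1 and Hspa9 had adjusted p-values of 0.120, 0.202 and 0.345. With the mean of all probe sets Hspe1 (0.103) and Hspa9 (0.160) lost their calls too. Hspd1 has 1 probe set, a second of Hspe1 was above its sham at TAC 1 month (0.097), and 1 of the 3 others of Hspa9 was above it at TAC 1 day (0.37) and with Ang II (0.23). Each of the 3 also missed the threshold when the TAC pair of 1 week or 1 month or either MI pair was left out (adjusted p from 0.0647 to 0.126). The summed signal of heart muscle markers was 0.822-fold and 0.813-fold the sham level after TAC at 1 week and 1 month and 0.869-fold and 0.931-fold after MI. It was 1.01-fold after TAC at 1 day and 0.975-fold with Ang II, where the mitochondrial medians were below 0 but within the difference between controls. Its part in the lower mitochondrial values was not tested.

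**Figure D2:**
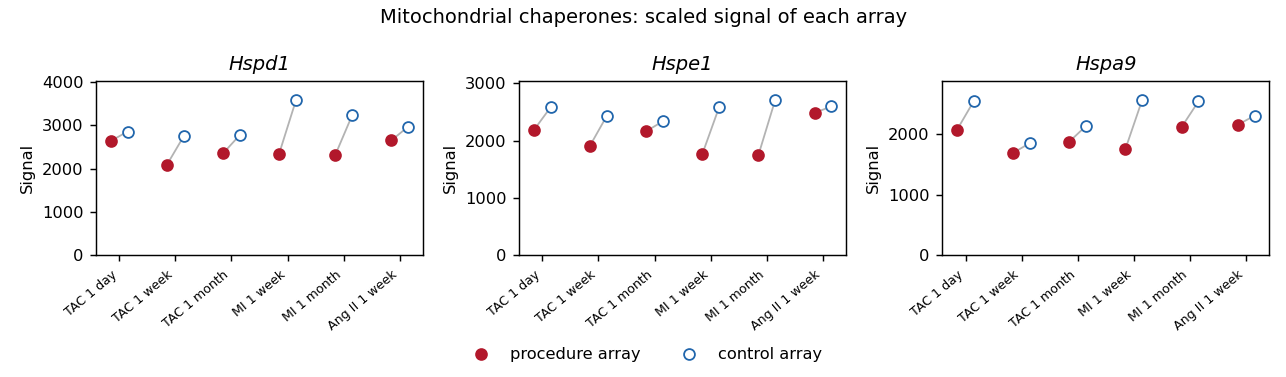
Scaled signal (linear axis) of the 3 mitochondrial chaperones on each procedure array (filled) and its control (open), joined by pair. Every filled point is below its open partner, and for Hspd1 all filled points, from 2093 to 2657, lie below all open points, from 2753 to 3586.

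Of the 15 ER folding genes, 1 passed the test over the 6 pairs. Pdia3 (ERp57), the isomerase that works with the lectins on glycoproteins, gave 1042, 1428 and 1083 after TAC at 1 day, 1 week and 1 month, against 777, 1010.4 and 975 in the shams. After MI it gave 1660.5 and 1356 at 1 week and 1 month, against 1001 and 874, and with Ang II 690.0, against 723. The 5 arrays of TAC and MI were all above the highest control, and the Ang II array was below its own control. Pdia3 rose by 0.39 ± 0.10 over the 6 pairs (adjusted p = 0.0408), and was 1.66-fold and 1.55-fold its sham after MI at 1 week and 1 month. Without the TAC pair of 1 week or 1 month or either MI pair its adjusted p was between 0.0681 and 0.120.

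P4hb (protein disulphide isomerase, also a subunit of the prolyl hydroxylase of collagen) gave 1873, 1449 and 1461 after TAC at 1 day, 1 week and 1 month, 2163 and 1464 after MI at 1 week and 1 month and 1327 with Ang II, against 1311, 1266 and 1227, 1219.8 and 1178, and 1336 in the matching controls. The TAC and MI arrays were again all above the highest control, while the Ang II array was nearly equal to its control. The mean change of 0.35 ± 0.10 had an adjusted p of 0.0512, just outside the threshold. It was 1.77-fold its sham after MI at 1 week.

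The other ER folding genes called higher after MI at 1 week were Pdia6, Pdia4, Sdf2l1, Creld2 and Manf. Pdia6 (P5) gave 1085, 463 and 508 after TAC at 1 day, 1 week and 1 month, 906 and 479.8 after MI at 1 week and 1 month and 474 with Ang II, against 562, 478 and 493, 562 and 464, and 505 in the matching controls. It was high on the TAC 1 day and MI 1 week arrays, 1.93-fold and 1.61-fold their shams, and close to the controls elsewhere. Manf, a small secreted protein of the ER stress response, gave 1220.4, 526 and 559.6 after TAC at 1 day, 1 week and 1 month, 1210.3 and 662 after MI at 1 week and 1 month and 436 with Ang II, against 584, 516 and 561, 711 and 589.5, and 502 in the matching controls. Its pattern was like that of Pdia6, with 2.09-fold and 1.7-fold on the same arrays.

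Pdia4 (ERp72) gave 62.4, 69.3 and 63.3 after TAC at 1 day, 1 week and 1 month, 122 and 77.0 after MI at 1 week and 1 month and 32.8 with Ang II, against 57.6, 75.4 and 71.5, 52.8 and 72.2, and 42.3 in the matching controls. Only the MI 1 week array lay far above the controls, at 2.32-fold its sham. Sdf2l1, a partner of the ER Hsp70, gave 34.1, 65.5 and 71.4 after TAC at 1 day, 1 week and 1 month, 128 and 48.1 after MI at 1 week and 1 month and 20.1 with Ang II, against 28.6, 54.3 and 47.3, 60.0 and 53.1, and 28.4 in the matching controls. It was dim on all arrays and was called after MI at 1 week (2.14-fold) and after TAC at 1 month (1.51-fold), but its controls differed among themselves by 2.11-fold. Creld2, an ER stress gene, gave 223, 140.0 and 155 after TAC at 1 day, 1 week and 1 month, 295 and 174 after MI at 1 week and 1 month and 120.1 with Ang II, against 159, 115 and 135, 166 and 164, and 132 in the matching controls. The MI 1 week and TAC 1 day arrays were its highest, and 1.78-fold was reached at MI 1 week.

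**Figure D3:**
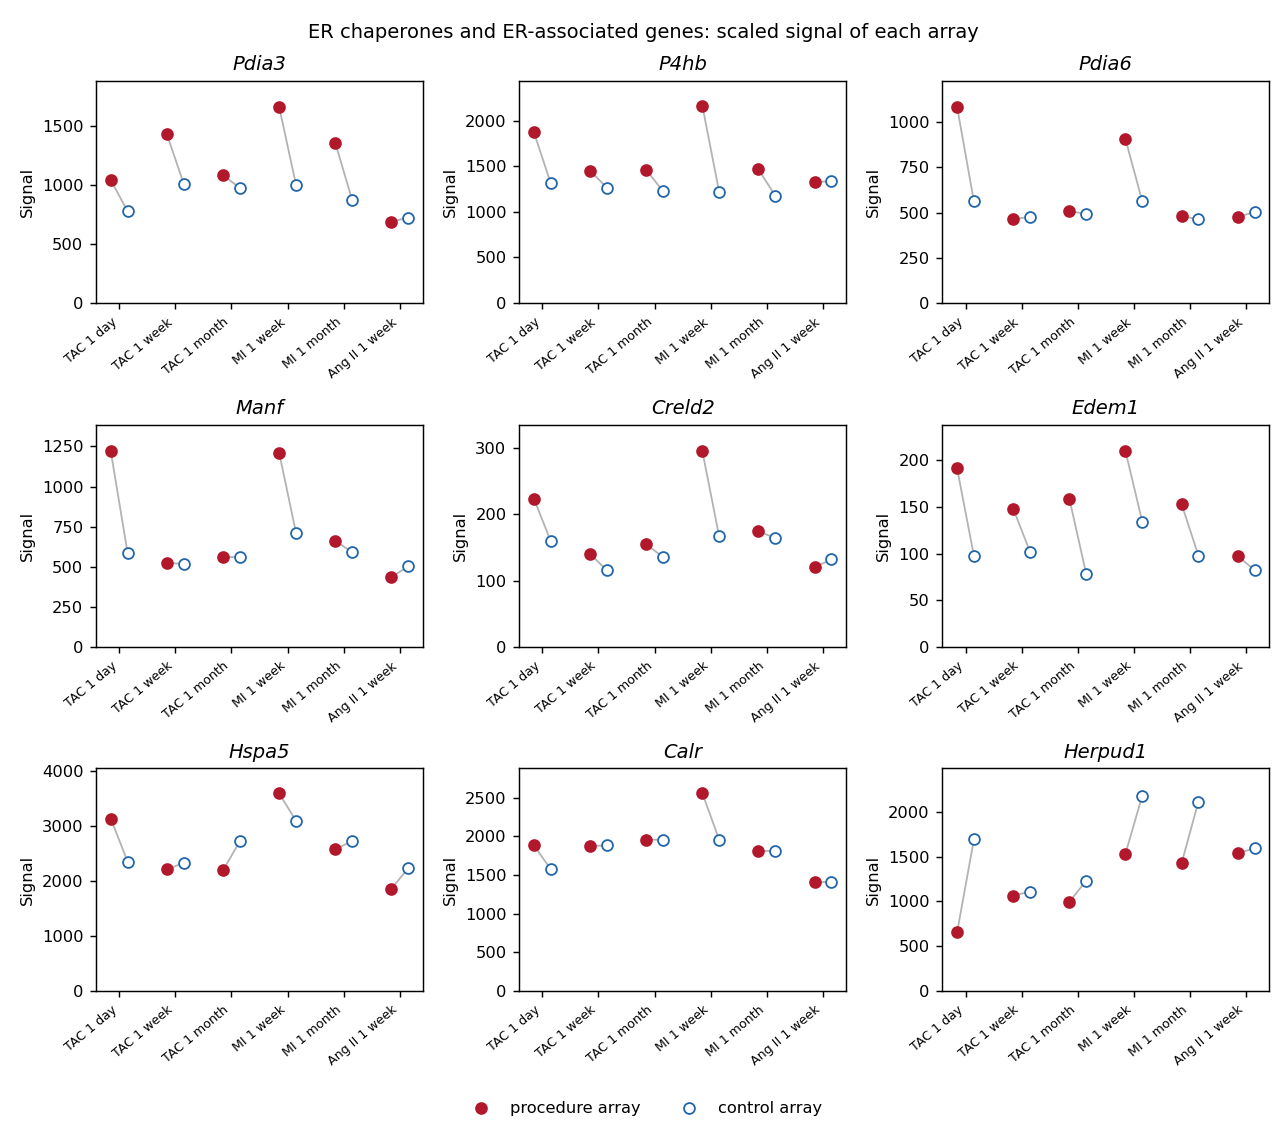
Scaled signal (linear axis) of ER members on each procedure array (filled) and its control (open), joined by pair. For Pdia6 and Manf the filled points of TAC at 1 day and MI at 1 week stand above all others, and for Edem1 every filled point is above its open partner.

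The major chaperones of the ER were not called in any pair. Hspa5 (BiP, the ER Hsp70) gave 3129, 2207 and 2189 after TAC at 1 day, 1 week and 1 month, 3589 and 2569 after MI at 1 week and 1 month and 1856 with Ang II, against 2348, 2325 and 2719.8, 3090.3 and 2724, and 2228 in the matching controls. It was higher than its sham on the TAC 1 day and MI 1 week arrays and lower on the other 4, and its mean change was -0.018 ± 0.096 (adjusted p = 0.926). A second bright probe set of Hspa5 was lower in all 6 pairs, with a mean of -0.22 and log2 ratios of -0.061 at TAC 1 day and -0.19 at MI 1 week. Hsp90b1 (Grp94, the ER Hsp90) gave 988, 1140.0 and 1308 after TAC at 1 day, 1 week and 1 month, 1495 and 1328 after MI at 1 week and 1 month and 1127 with Ang II, against 1041, 1118 and 1362, 1413 and 1481, and 1288 in the matching controls. The arrays of both groups covered nearly the same range. Hyou1 (Grp170, which exchanges the nucleotide of the ER Hsp70) gave 255, 266 and 223 after TAC at 1 day, 1 week and 1 month, 258 and 217 after MI at 1 week and 1 month and 147 with Ang II, against 167, 299 and 264, 202 and 193, and 162 in the matching controls. Its sham of TAC at 1 week was the highest of all 12 arrays.

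The lectins and J-domain partners were not called in any pair either. Calr (calreticulin) gave 1884, 1878 and 1960.0 after TAC at 1 day, 1 week and 1 month, 2563 and 1812 after MI at 1 week and 1 month and 1409 with Ang II, against 1576, 1883 and 1958, 1959 and 1811, and 1408 in the matching controls. Only the MI 1 week array stood out, and at TAC 1 week and 1 month, MI 1 month and Ang II the procedure array was nearly equal to its control. Canx (calnexin, the membrane-bound lectin) gave 1348, 1371 and 1562 after TAC at 1 day, 1 week and 1 month, 1709 and 1800.2 after MI at 1 week and 1 month and 1496 with Ang II, against 1569, 1751 and 1564, 1832 and 1970.2, and 1676 in the matching controls. It was lower than its control in all 6 pairs, although by a log2 ratio of only -0.0022 at TAC 1 month, and had a mean change of -0.16 ± 0.064 (adjusted p = 0.129). A second, dimmer probe set of Canx was above its sham by 0.27 at MI 1 week and had a mean of -0.027.

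Dnajb9 (ERdj4, which binds the ER Hsp70) was also lower in all 6 pairs, with 893, 924 and 1088 after TAC at 1 day, 1 week and 1 month, 963 and 1136 after MI at 1 week and 1 month and 959 with Ang II, against 934, 1152 and 1140.2, 1218 and 1457, and 1009 in the matching controls. Its mean change was -0.20 ± 0.071 (adjusted p = 0.0931), and the groups overlapped. Dnajb11 (ERdj3) gave 268, 264 and 199 after TAC at 1 day, 1 week and 1 month, 327 and 246 after MI at 1 week and 1 month and 201 with Ang II, against 198, 214 and 239, 268 and 219, and 189.6 in the matching controls. It was higher in 5 of 6 pairs and had a mean change of 0.17 ± 0.10 (adjusted p = 0.30). Dnajc3 (p58IPK), another J-domain partner, gave 189.9, 299 and 280.4 after TAC at 1 day, 1 week and 1 month, 332 and 277 after MI at 1 week and 1 month and 207 with Ang II, against 208, 293 and 285, 284 and 309, and 230.0 in the matching controls. With this probe set the groups overlapped throughout. The 4 other, dimmer probe sets of Dnajc3 were all above their shams at TAC 1 day (0.47 to 0.70). They were also above them at MI 1 week (0.27 to 0.52) and MI 1 month (0.20 to 0.57).

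Of the 15 ER folding genes, 13 were above their sham after MI at 1 week, with a median log2 ratio of 0.39, and 11 after TAC at 1 day, with a median of 0.41. At 1 week and 1 month after TAC the medians were 0.027 and -0.003, after MI at 1 month 0.049 and with Ang II -0.14. Control arrays of the same time differed by up to 0.32 in this median. With the shams of the TAC and MI series exchanged the median for MI at 1 week was 0.63. The fibroblast markers were 2.65-fold and the macrophage markers 2.48-fold their sham level after MI at 1 week, where 8 ER genes were called higher, and 2.11-fold and 1.79-fold after MI at 1 month. After TAC at 1 day, 1 week and 1 month the fibroblast markers were 1.25-fold, 1.99-fold and 1.85-fold and the macrophage markers 1.6-fold, 1.11-fold and 1.31-fold the sham level. With Ang II they were 1.4-fold and 1.13-fold. In the TAC pairs of 1 week and 1 month the fibroblast markers were higher and the ER folding medians were close to 0. A list of 19 other genes, of ER oxidation, glycan and collagen folding, had medians of 0.29 and 0.15 in these pairs. The neutrophil markers were 9.22-fold, 0.464-fold and 1.44-fold the sham level after TAC at 1 day, 1 week and 1 month, 5.65-fold and 3.04-fold after MI at 1 week and 1 month and 0.997-fold with Ang II. The summed signal of B and plasma cell markers was 528 on the MI 1 month array, against 74.5 in its sham, and lay between 55.8 and 116 on the other procedure arrays. Their part in the ER values was not tested.

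The 3 genes of ER regulation and degradation went different ways. Edem1, a lectin that withdraws misfolded glycoproteins for degradation, gave 192, 148 and 159 after TAC at 1 day, 1 week and 1 month, against 97.6, 102 and 78.3 in the shams. After MI it gave 210.0 and 153 at 1 week and 1 month, against 134 and 97.9, and with Ang II 97.6, against 82.2. It was higher in every pair, although the Ang II array lay among the controls. Edem1 rose by 0.68 ± 0.12 over the 6 pairs (adjusted p = 0.0124). In the fit with separate effects of each model it was the only member to pass, after TAC (0.85 ± 0.16, adjusted p = 0.0422), where 1 of 37 members (2.70%) stood beside 2.34% of all genes. With any 1 pair left out Edem1 still passed, and with no filter on dim genes it did not (adjusted p = 0.0665). A second probe set of Edem1 was also higher in all 6 pairs, with a mean of 0.58, although by only 0.12 at TAC 1 month.

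Herpud1, a membrane protein of the degradation complex, gave 650.3, 1064 and 993 after TAC at 1 day, 1 week and 1 month, 1533 and 1427 after MI at 1 week and 1 month and 1539 with Ang II, against 1692, 1107 and 1231, 2184 and 2116, and 1591 in the matching controls. It was lower in all 6 pairs, most of all after TAC at 1 day, where the sham level was 2.6 times that of the TAC array. Its mean change was -0.48 ± 0.15 (adjusted p = 0.0697), and its controls differed by up to 1.97-fold. Xbp1, the transcription factor of the unfolded protein response, gave 1701, 1308 and 1365 after TAC at 1 day, 1 week and 1 month, 1779 and 1486 after MI at 1 week and 1 month and 1149.9 with Ang II, against 1279, 1409 and 1509.8, 1362 and 1461, and 1186 in the matching controls. It was above its shams after TAC at 1 day and MI at 1 week and did not pass the test (adjusted p = 0.565). The array measures total Xbp1 and not its splicing.

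The cytosolic chaperones had the highest median range across the 6 control arrays of the 5 classes. Hspa1b, an inducible Hsp70, gave 1111, 214 and 1850.2 after TAC at 1 day, 1 week and 1 month, against 124, 309 and 169 in the shams. After MI it gave 855 and 347 at 1 week and 1 month, against 1979.8 and 2551, and with Ang II 113, against 357. The shams of the MI series were the 2 highest of the 12 arrays, above every procedure array, and the shams of TAC at 1 day and 1 month were among the lowest. The highest control was 20.5 times the lowest, the 4th widest control range of 11624 genes and the widest of the 6995 with a mean signal over 100. TAC at 1 day and 1 month was 8.94-fold and 10.96-fold its sham, and the MI shams were 2.31 and 7.34 times the MI arrays. All 3 probe sets of Hspa1b had these directions in those 4 pairs, with log2 ratios of 3.17 to 3.45 for TAC at 1 month and -3.01 to -2.63 for MI at 1 month.

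Hspa1a, the neighbouring copy, gave 489.7, 104 and 756 after TAC at 1 day, 1 week and 1 month, 180.0 and 119 after MI at 1 week and 1 month and 97.2 with Ang II, against 87.0, 157 and 101, 429 and 570.0, and 173 in the matching controls. It was high on the same 4 arrays, the TAC arrays of 1 day and 1 month and both MI shams. The mean changes of Hspa1a (0.076 ± 0.61, adjusted p = 0.951) and Hspa1b (0.058 ± 0.76, adjusted p = 0.97) were smaller than their errors. Hspa1a was called higher after TAC at 1 month, and Hspa1b was called lower with Ang II, where the control was 3.15 times the Ang II array. For Hspa1b after TAC the MI shams were higher than the TAC arrays, so it was not called there.

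The same 4 arrays were also the highest for Hsph1 and Hsp90aa1. Hsph1 (Hsp105, a nucleotide exchange factor of Hsp70) gave 609, 279 and 682 after TAC at 1 day, 1 week and 1 month, 525 and 337 after MI at 1 week and 1 month and 297 with Ang II, against 364, 351 and 391, 861 and 797, and 397 in the matching controls. After MI at 1 month the sham was 2.37 times the MI array, the only call of this gene. Hsp90aa1, the inducible cytosolic Hsp90, gave 3319, 1652 and 2472 after TAC at 1 day, 1 week and 1 month, 2047 and 1748 after MI at 1 week and 1 month and 1387 with Ang II, against 1377, 1318 and 1685, 2277 and 2249, and 1410.1 in the matching controls. The TAC 1 day array was the highest of the 12, 2.41-fold its sham. These 4 arrays were taken from Hspa1b itself, as those where it was highest, so this gene counts by definition. In all, 11 of 11624 genes (0.0946%) had them as their highest, and 4 of these genes were members. Among those members is Hspa1a, whose signal may include that of Hspa1b.

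The J-domain partners of Hsp70 had a narrower form of the pattern. Dnajb1 (Hsp40) gave 539, 354 and 525 after TAC at 1 day, 1 week and 1 month, 532 and 421 after MI at 1 week and 1 month and 349.7 with Ang II, against 314, 350.0 and 281, 657 and 653, and 512 in the matching controls. Both MI shams were again the highest arrays. Dnaja1 gave 913, 848 and 1401 after TAC at 1 day, 1 week and 1 month, 1514 and 1134 after MI at 1 week and 1 month and 754 with Ang II, against 820.1, 819 and 944, 1888 and 1817, and 1086 in the matching controls. Its 2 highest arrays were the MI shams and its lowest was that of Ang II. Dnajb4 gave 2513, 2228 and 2177 after TAC at 1 day, 1 week and 1 month, 2351 and 2094 after MI at 1 week and 1 month and 2129.6 with Ang II, against 1827, 1903 and 1758, 2809.7 and 2387, and 1879 in the matching controls. It was above its sham in all 3 TAC pairs and below it in both MI pairs.

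**Figure D4:**
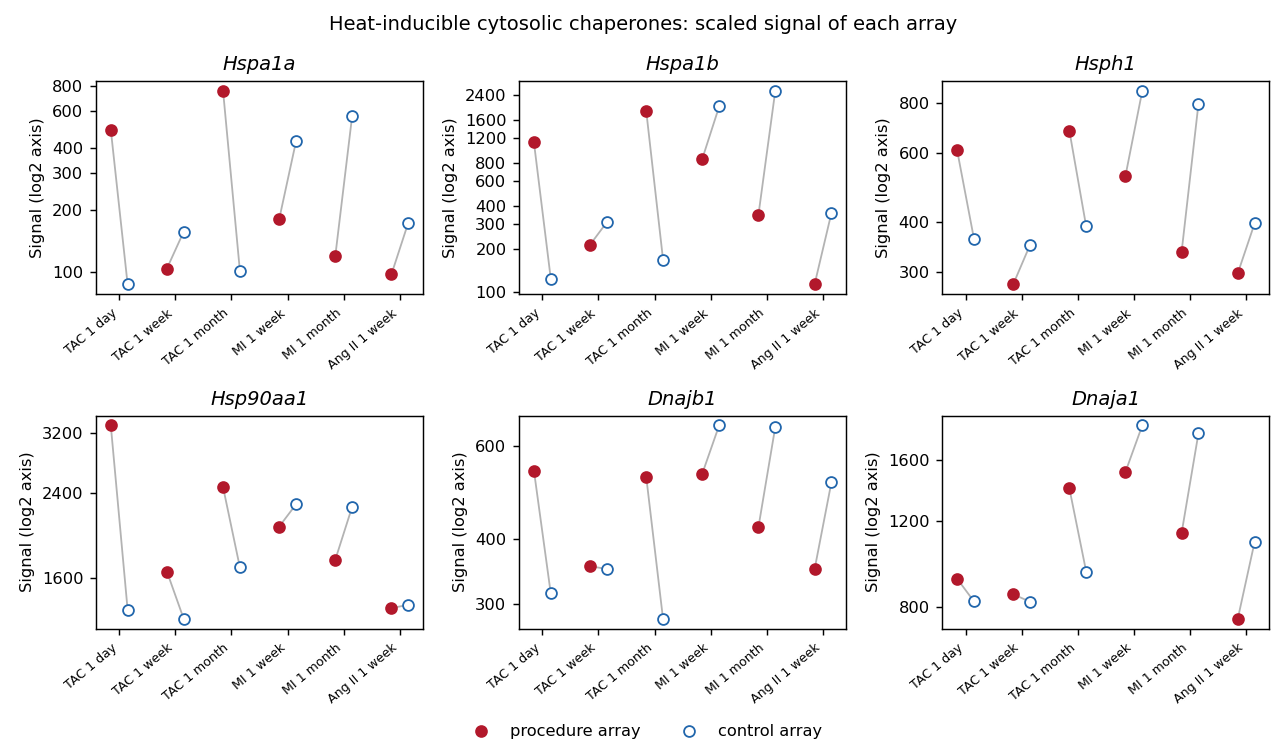
Scaled signal (log2 axis) of 6 heat-inducible cytosolic chaperones on each procedure array (filled) and its control (open), joined by pair. For Hspa1a, Hspa1b, Hsph1 and Hsp90aa1 the filled points of TAC at 1 day and 1 month and the open points of MI at 1 week and 1 month are above the other 8.

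Among the remaining cytosolic members Dnajb5, a J-domain protein of striated muscle, gave 232, 331 and 383 after TAC at 1 day, 1 week and 1 month, 354 and 361 after MI at 1 week and 1 month and 378 with Ang II, against 404, 423 and 425, 502 and 458, and 364 in the matching controls. It was lower in 5 of 6 pairs, with a mean change of -0.35 ± 0.11 (adjusted p = 0.0635), and was called lower after TAC at 1 day. Hspa4, an exchange factor of the Hsp110 family, gave 1423, 867 and 1040.3 after TAC at 1 day, 1 week and 1 month, 908 and 1011 after MI at 1 week and 1 month and 883 with Ang II, against 996, 767 and 770.4, 876 and 980.2, and 888 in the matching controls. With this probe set the TAC 1 day array was its highest, and its mean change was 0.20 ± 0.086 (adjusted p = 0.151). Another, dimmer probe set of Hspa4 was lower in all 6 pairs, with a log2 ratio of -0.48 at TAC 1 day and a mean of -0.25. A still dimmer probe set above the filter had a log2 ratio of 0.23 at TAC 1 day and a mean of 0.28. The direction for Hspa4 thus depended on the probe set. Hspa8, the constitutive Hsp70, gave 7645, 5404 and 7180.1 after TAC at 1 day, 1 week and 1 month, 8346 and 7111 after MI at 1 week and 1 month and 6930.2 with Ang II, against 6895, 5948 and 6811, 8892 and 7868, and 7323 in the matching controls. It differed little between groups, and both the highest control and the highest procedure array were of MI at 1 week.

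Bag3, which joins Hsp70 to the small heat shock proteins, gave 1372, 1355 and 1563 after TAC at 1 day, 1 week and 1 month, 1289.7 and 1269 after MI at 1 week and 1 month and 1522 with Ang II, against 1695, 1378 and 1503, 1482 and 1454, and 1557 in the matching controls. It was below its control in 5 of 6 pairs and had a mean change of -0.12 ± 0.068 (adjusted p = 0.286). The sham of TAC at 1 day was its highest array, and its controls differed by only 1.23-fold.

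Whether TAC and MI differed was tested directly. Of 37 members, 0 passed the TAC minus MI difference, as did 0 of 11624 genes (0.0%) in limma's fit. At an unadjusted p under 0.05 there were 527 genes (4.53%) and 10 members (27.0%), all with the higher ratio after TAC (1.55% of all genes). These 10 members became 1 with controls of the same time averaged, 5 with the shams exchanged, 5 with no replicate block, 4 without the MI pair of 1 month and 15 without the TAC pair of 1 day. Ratios above 0 in all 3 TAC pairs and below 0 in both MI pairs were shown by 4 members, Hsp90aa1, Dnaja1, Dnajb1 and Dnajb4 (10.8% of members, beside 4.4% of all genes with opposite signs either way). All other probe sets above the filter had these signs for Hsp90aa1 and Dnajb4, and 1 of the others of Dnaja1 and that of Dnajb1 did not. The differences for Hspa1b (4.07 ± 1.1), Hspa1a (3.35 ± 0.93) and Hsph1 (1.38 ± 0.35) were the widest, and each had an adjusted p of 0.983.

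The controls were also set against each other. At 1 week 5 members were called higher in the MI sham than in the TAC sham (Hsph1, Hsp90aa1, Dnaja1, Dnajb1 and Herpud1) and 0 lower. These were 13.5% of members, beside 6.37% of all genes in either direction and 2.41% higher. At 1 month Hspa1a and Hspa1b were called higher in the MI sham than in the TAC sham, and 0 members lower. They were 5.41% of members, beside 5.6% of all genes in either direction and 1.91% higher. These calls ask that the MI sham lie beyond the other 5 controls. Asked of the TAC sham instead, 4 members were lower in it at 1 week, the same without Dnajb1, and 1 at 1 month, Dnajb1. At 1 week these were 10.8% of members, beside 7.41% of all genes in either direction and 2.84% lower. At 1 month the share was 2.70%, beside 7.77% of all genes in either direction and 2.75% lower. When the shams of the 2 series were exchanged, the cytosolic median was 0.49 for MI at 1 week, against -0.30 with its own sham, and 8 of 11 members changed sign. For MI at 1 month it was 0.24, against -0.36, with 7 of 11 members changed. For TAC the exchange gave -0.72 at 1 week and -0.13 at 1 month, against -0.024 and 0.55. With exchanged shams 0 of the 4 members above kept opposite signs in TAC and MI. The sign of the cytosolic median thus depended on the sham for TAC at 1 month and for MI at both times. What set the MI shams apart was not tested.

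The small heat shock proteins differed little between controls. Hspb1 (Hsp25) gave 13839, 4833 and 6068 after TAC at 1 day, 1 week and 1 month, 5153 and 4089 after MI at 1 week and 1 month and 5729.7 with Ang II, against 6197, 5286 and 5939, 5321 and 5296, and 5183 in the matching controls. The TAC 1 day array was 2.23-fold its sham and far above the other 11 arrays, the only call in this class. Hspb2, made in muscle, gave 1314, 802 and 762 after TAC at 1 day, 1 week and 1 month, 807 and 767 after MI at 1 week and 1 month and 855 with Ang II, against 973, 857 and 817, 951 and 734, and 862 in the matching controls. It too was highest on the TAC 1 day array. The mean changes of Hspb1 (0.13 ± 0.16, adjusted p = 0.633) and Hspb2 (0.0085 ± 0.089, adjusted p = 0.962) did not pass.

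Cryab (alphaB-crystallin, which binds desmin and titin) gave 10203, 7197 and 8274 after TAC at 1 day, 1 week and 1 month, 7131 and 7746 after MI at 1 week and 1 month and 9939 with Ang II, against 9562, 7737 and 8148, 8735 and 9569, and 9392 in the matching controls. Its controls differed by 1.24-fold and the groups overlapped. Hspb7, which is abundant in heart, gave 9857, 7655 and 8284 after TAC at 1 day, 1 week and 1 month, 7711 and 8936 after MI at 1 week and 1 month and 9889 with Ang II, against 8490.2, 8818 and 9396, 8551 and 9029, and 8785 in the matching controls. The Ang II and TAC 1 day arrays were above all controls and the others were within or below their range. Hspb8, the partner of Bag3, gave 2424, 1935 and 2316 after TAC at 1 day, 1 week and 1 month, 1706 and 1911 after MI at 1 week and 1 month and 2089.9 with Ang II, against 2012, 1989 and 1753, 2087 and 2036, and 2207 in the matching controls. It did not pass in the common fit (adjusted p = 0.872). Hspb1, Hspb7, Cryab and Hspa8 were brighter than 5000 on average, and whether signals this bright are compressed was not tested.

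The classes were compared by their medians in each pair. Over the mean of the 6 pairs the medians were 0.034 for cytosolic, 0.008 for small, -0.32 for mitochondrial, 0.13 for ER folding and 0.087 for ER regulation genes. The cytosolic median was 0.51 and 0.55 after TAC at 1 day and 1 month, -0.024 at 1 week, -0.30 and -0.36 after MI and -0.079 with Ang II, and shams of the same time differed by up to 0.79. The small class had 0.27, -0.10 and 0.022 after TAC at 1 day, 1 week and 1 month, -0.24 and -0.092 after MI and 0.082 with Ang II, with shams differing by up to 0.069. Mitochondrial genes were the class whose median kept its sign in all 6 pairs and with exchanged shams. The class median was further from 0 than the widest difference between controls of the same time in 5 of 6 pairs for small genes, in both MI pairs for mitochondrial genes, at TAC 1 day and MI 1 week for ER folding genes, and in 0 of 6 pairs for cytosolic and ER regulation genes. The median range of single members across the 6 controls was 1.73-fold for cytosolic, 1.24-fold for small, 1.3-fold for mitochondrial, 1.42-fold for ER folding and 1.71-fold for ER regulation genes, beside 1.5-fold for all genes.

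**Figure D5:**
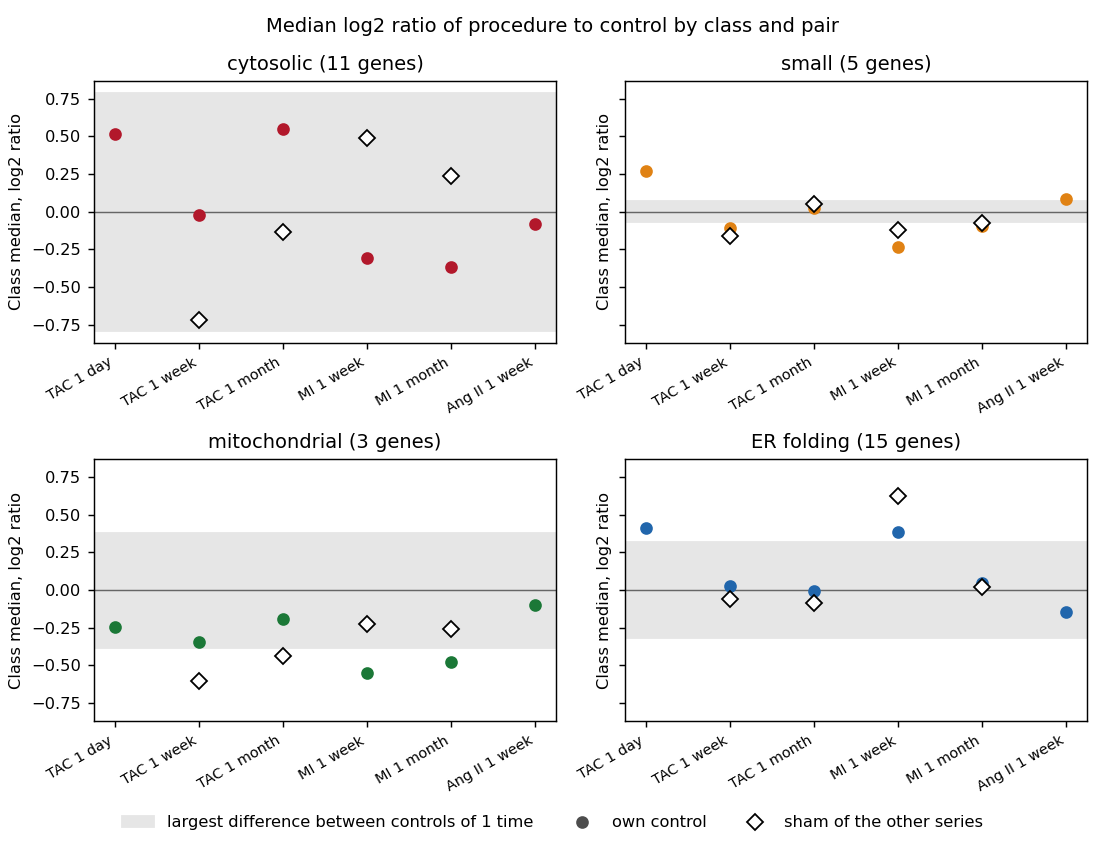
Points give the median log2 ratio of procedure to control in each pair for the cytosolic, small, mitochondrial and ER folding classes. Diamonds give the same with the sham of the other series, for TAC and MI at 1 week and 1 month. The grey band is the largest difference between controls of 1 time. The cytosolic points stay inside the band of 0.79 and change sign with the sham for TAC at 1 month and MI at both times, and the mitochondrial points and diamonds are all below 0.

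Other genes of these pathways were read from lists chosen with earlier results of these data known. In the common fit 5.16% of all genes rose and 5.7% fell. Of 24 measured heat shock factors and co-chaperones, 0 rose and 3 fell: Fkbp4, an immunophilin partner of Hsp90 (-0.69 ± 0.099, adjusted p = 0.00621), and Smyd1 (-0.37 ± 0.11, adjusted p = 0.0495) and Unc45b (-0.33 ± 0.079, adjusted p = 0.0296), which work in the folding of myosin. Of 8 subunits of the cytosolic chaperonin 0 passed, and the furthest from 0 were Cct5 (0.11 ± 0.080) and Cct2 (0.11 ± 0.094). Of 12 other mitochondrial chaperones and proteases, 1 fell, Clpx, the unfoldase of the Clp protease (-0.46 ± 0.095, adjusted p = 0.0197). Their median over the 6 pairs was -0.21, beside -0.004 for all genes.

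On the ER side, beside the 5.16% of all genes that rose, 1 of 15 signalling genes of the unfolded protein response rose, Creb3, a membrane-bound transcription factor (0.32 ± 0.089, adjusted p = 0.0486). Of 15 genes of ER-associated degradation 0 passed, and Erlin1 (0.32 ± 0.13) and Derl3 (-0.27 ± 0.26) were furthest from 0. Of 19 genes of ER oxidation, glycan and collagen folding 4 rose and 0 fell. They were Ppic (0.76 ± 0.18, adjusted p = 0.0293) and Ppib (0.35 ± 0.076, adjusted p = 0.0224), prolyl isomerases of the secretory pathway, Txndc5, a disulphide isomerase (0.68 ± 0.12, adjusted p = 0.0124), and Uggt1, the glucosyltransferase that senses misfolded glycoproteins (0.41 ± 0.10, adjusted p = 0.0322). Of 17 ER translocation genes, 2 subunits of the protein channel rose, Sec61a1 (0.60 ± 0.12, adjusted p = 0.020) and Sec61b (0.46 ± 0.11, adjusted p = 0.0318).

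The promoter matches were set beside the responses as a description. The 9 ER members whose window held an ER stress element of either form had a median log2 ratio of 0.23 after MI at 1 week, and the 7 with a window but no match had 0.73. Edem1, Pdia3, Pdia4, P4hb and Sdf2l1, all called higher in that pair, were among the 7 without a match, and Pdia6 and Creld2 were called with one. The 6 cytosolic members with a pair of heat shock units had a median control range of 1.25 on the log2 scale, and the 3 with a window but no pair had 0.46. The 6 include Hspa1a and Hspa1b, whose signals may overlap. Bag3, with a pair, ran from 1378 to 1695 on the controls, and Dnajb1, with a window but no pair, from 281 to 657. A match shows only that these letters stand in the window, and the genes share their arrays.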

How the data were processed

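Left ventricular RNA was hybridised to 12 one-colour Affymetrix mouse arrays, 1 per group. The deposited values are probe-set signals, a linear intensity, made with GCOS per the submitters' processing notes, and any scaling by the authors is not given in the sources used here. Procedure and control were paired by the series and time in the labels' titles. The series text gives a harvest at 1 day to MI and describes reperfusion after the occlusion, whereas the array labels give 1 day to TAC and name a ligation, and the array labels were used.

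Of 45101 probe sets, 34958 had 1 gene symbol in the platform annotation, 932 had several and 9211 were not listed. Each array was scaled to a common mean trimmed by 2% at each end (factors 0.872 to 1.09), values under the 20th percentile (4.54) were raised to it, log2 was taken, and genes whose brightest probe set averaged above the 40th percentile (18.1) were kept. No member value lay at the floor, and 24 of the 37 members had several probe sets above the filter, of which 15 had a mean change of the same sign in all. The number of arrays limits the precision.

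Models were fitted with limma 3.58.1 in R 4.3.3, with the pair as a block and an intensity trend, at an adjusted p under 0.05. The common response has 5 residual degrees of freedom, and the fit with separate effects of TAC, MI and Ang II has 3, so Ang II, with 1 pair, takes its spread from TAC and MI. Tables and figures were made in Python 3.11.15. The fits were tested on simulated data. The pairing follows the titles, and the dap ratios of the arrays of 1 series lay together.

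All members are named, with values for each array. Other genes of the pathways are named where they passed, or else the 2 furthest from 0. The members and lists were chosen with earlier results of these data known. Alternatives covered scaling, floor, filter, choice of probe set, variance trend, the block, the control used and each pair left out.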

Additional observations from a re-analysis of the deposited data

Results flagged for a closer look

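Opposite directions after TAC and after MI, in every pair of each model, were shown by 4 members. The TAC minus MI difference in limma's fit was 0.97 ± 0.26 for Hsp90aa1 (unadjusted p = 0.00618), 0.76 ± 0.20 for Dnaja1 (0.00601), 1.03 ± 0.28 for Dnajb1 (0.00643) and 0.55 ± 0.14 for Dnajb4 (0.00376), on the log2 scale with the SE of the fit, over 3 TAC and 2 MI pairs. All 4 had an adjusted p of 0.983 over all genes and so failed the correction. With the shams of the TAC and MI series exchanged, 0 of these 4 had opposite directions, and 2 other members did. No group had the 4 arrays that a search for outlying arrays within a group needs.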

How the results depend on the processing

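The 5 members called over the mean of the 6 pairs became 3 with signals as deposited, 2 with the mean of all probe sets, 0 with no filter on dim genes, 1 without a variance trend, 2 with no replicate block and 3 with the shams of TAC and MI exchanged. The 1262 genes called became 800, 694, 0, 241 and 473 under the first 5 of these settings. With 1 pair left out, members called ranged from 1 to 7 and genes from 256 to 1485. With no filter, 11 members and 3703 genes had an unadjusted p under 0.05. Signals as deposited gave medians of all genes of 0.21 and 0.31 for TAC at 1 week and 1 month. They were 0.16 for MI at 1 week and -0.23 for TAC at 1 day. In the main setting these medians were -0.0028, -0.0031, 0.0090 and -0.074 in the same order.

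Members called in single pairs became 2 for TAC at 1 week with signals as deposited, with the mean of all probe sets and with averaged controls, and 6 for TAC at 1 month with signals as deposited. For MI at 1 month they became 1 with the mean of all probe sets, 2 with averaged controls and 1 at 2-fold, and for Ang II 0 with the mean of all probe sets and 5 with averaged controls. At 2-fold they were 4 for TAC at 1 day and 2 for MI at 1 week. The range of Hspa1b across controls was 4.07 (log2) with the mean of all probe sets.

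With 1 pair left out, class medians over the pairs ran from -0.15 to 0.17 for cytosolic, from -0.076 to 0.057 for small and from -0.075 to 0.11 for all members. With 1 pair left out the ranges were -0.49 to 0.54 for Hspa1a, -0.62 to 0.64 for Hspa1b, -0.39 to 0.016 for Hsph1, -0.14 to 0.17 for Dnajb1, -0.075 to 0.23 for Hspb1, -0.077 to 0.057 for Hspb2, -0.076 to 0.0080 for Hspb7, -0.047 to 0.092 for Hspb8, -0.10 to 0.041 for Hspa5, -0.091 to 0.23 for Pdia4 and -0.0071 to 0.16 for Hyou1. Signals as deposited moved the mean ratio of all 37 members alike, by 0.0965, and so gave 0.058 for Hspa8, 0.069 for Hspb7, 0.012 for Cryab, 0.079 for Hspa5, 0.034 for Hsp90b1 and 0.062 for Dnajc3. Quantile normalization gave 0.11 for Hspa8 and Hspb7, 0.058 for Cryab and 0.035 for Hspa5. The mean of all probe sets gave 0.050 for Hspb7, -0.12 for Hspb8 and 0.15 for Dnajc3. The cause of the shifts in these last 2 settings was not tested. The 3 mitochondrial members and Pdia3 and Edem1 kept their direction under every alternative run. For them only the scaling, the choice of probe set and a pair left out could change the mean ratio. Under the other settings it stayed the same by construction, so its direction could not change there. The TAC minus MI difference called 0 genes under every alternative. At an unadjusted p under 0.05 its 527 genes became 325 with averaged controls, 281 with signals as deposited, 916 with no filter and 998 with exchanged shams. With 1 pair left out they were fewest without MI at 1 week and 1020.0 without TAC at 1 day.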
